A study of Mus musculus with 6 samples.

Results

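The miR-183, miR-96 and miR-182 cluster was followed in 3T3-L1, a clonal mouse fibroblast line that hormones turn into fat cells. Its members were all mouse miRNAs on the array named for miR-96, miR-182 or miR-183, either arm, which gave 6 of 1247, and 4 of these had enough signal to be tested. IL-6, an inflammatory cytokine that muscle also releases during exercise, was given at 1 ng/ml from the induction of differentiation, with fresh medium daily, in 2 samples, and 4 control samples received none. All 6 samples came from the same line on day 8, and both groups had passed through the same cocktail of isobutyl-methylxanthine, dexamethasone, insulin and rosiglitazone. The labels do not say whether samples of a group were separate cultures, so the p-values reflect sample-to-sample spread that may be only technical, and the number of arrays limits the precision.

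The 3 hairpins of this cluster are cut from one primary transcript, and their 5p arms are the strands usually kept in the silencing complex. In mice and humans the cluster is best known from sensory cells of the retina, the inner ear and the dorsal root ganglia, and from epithelia. Changes in the seed of miR-96, the stretch that pairs with target mRNAs, cause progressive hearing loss in both species. The mRNA of FoxO1, a transcription factor that restrains adipogenesis and acts downstream of insulin, is among the targets described for all 3 guide strands in cultured cells.

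In the RefSeq annotation of GRCm38.p6 the cluster spans 3820 bases of the minus strand of chromosome 6, from 30165918 to 30169737. Mir183 (30169668 to 30169737) lies 116 bases from Mir96 (30169446 to 30169551), and Mir182 (30165918 to 30165992) lies 3453 bases beyond Mir96. All 3 fall within the non-coding host gene Mirc35hg, and the nearest coding genes are Nrf1, 12459 bases away, and Ube2h, 41551 bases away on the other side. The mature sequences of the 4 members with signal are shown 5′ to 3′ as RefSeq gives them, with the seed, bases 2 to 8, in capitals, because the seed decides how far these strands can share targets:
mmu-miR-183-5p: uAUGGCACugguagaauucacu
mmu-miR-96-5p: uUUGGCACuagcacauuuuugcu
mmu-miR-182-5p: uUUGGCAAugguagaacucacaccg
mmu-miR-183-3p: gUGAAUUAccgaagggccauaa

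Counting from the 5′ end, the seeds of miR-183-5p and miR-96-5p agreed at 6 of 7 bases and differed by A2U. The seeds of miR-96-5p and miR-182-5p also agreed at 6 of 7, with C8A as the difference. Between miR-183-5p and miR-182-5p both substitutions were present, A2U and C8A, and yet 18 of the 22 positions set side by side over the whole strands were identical. Of the 1247 mouse miRNAs on the array, 1017 had a RefSeq mature sequence, and bases 2 to 7 were the same in miR-96-5p and miR-182-5p and in no other of these. The same bases of miR-183-5p and of the 3p arms occurred in no other miRNA.

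Both arms of the Mir183 hairpin were measured. They stand in capitals, the 5p arm first, in the hairpin of 70 bases:
Mir183 hairpin: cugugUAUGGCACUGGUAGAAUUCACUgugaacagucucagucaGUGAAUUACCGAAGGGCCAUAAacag

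The arrays, 1-colour Agilent mouse miRNA arrays, report a fluorescence intensity for each spot. Each member was read by 40 spots per array, and a spot counted where the scanner software marked it as well above background. A miRNA was tested if detected on all controls or on both IL-6 arrays. The cluster's 5p arms were well above background on every array and every spot kept, in 222 of 222 spots for miR-183-5p, 235 of 235 for miR-96-5p and 236 of 236 for miR-182-5p. For miR-183-3p the count was 108 of 232, and its 2 shorter probes were detected on no array. For miR-96-3p and miR-182-3p it was 0 of 232 and 0 of 229, so these arms have only a bound. Over the array, 422 hairpins had both arms printed, of which 28 (6.64%) had both arms detected on all 6 arrays. The miR-183 hairpin was among these 28. miR-96 and miR-182 were among the 66 in which only the 5p arm was detected on all 6 arrays.

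Of the miRNAs listed as fat cell and fibroblast markers, 8 of 8 were detected on every array, the brightest being miR-21a-5p and miR-199a-3p. None of 3 muscle, 5 blood, 1 endothelial and 1 liver miRNA was detected on any. Of 8 epithelial miRNAs, 7, including the miR-200 family with miR-141-3p and miR-429-3p, were not well above background on any array, and miR-205-5p was detected on all. The summed level of the epithelial list was 72.4 to 79.6 intensity units with IL-6 and 67.7 to 77.2 in controls. With the other 7 at background, this sum was nearly all miR-205-5p. The 75th percentile of array brightness was 405 ± 50.01 intensity units (SD, n = 2) on the IL-6 arrays and 334 ± 61.7 (SD, n = 4) on the control arrays, with control 2, at 396, brighter than IL-6 array 2, at 369, and arrays were scaled to a common percentile. Slide positions are not in the labels and were read from the array identifiers in the file headers, taking the first index as row and the second as column. On that reading the IL-6 arrays lay in the second row and the controls in the first, so row and treatment cannot be told apart.

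With IL-6, all 4 tested members measured 1.15-fold to 1.40-fold lower than in controls, although without scaling or with spike-in scaling miR-182-5p was above 0. For 3 of them both IL-6 arrays lay below all 4 control arrays. None passed the test over all 299 tested miRNAs (limma, threshold 0.05 after Benjamini-Hochberg adjustment), in which 1 miRNA (0.334%) passed in all, as higher, and 0.00% as lower. At an unadjusted p under 0.05, 3 of the 4 members were lower, against 12.0% of all tested miRNAs (36 lower and 32 higher). A full separation in that direction was found for 21.7% of all tested miRNAs. The median log2 difference was -0.36 over the members and -0.016 over all tested. Within slide columns 3 and 4, which by the same reading each held 1 array of either group, the members' median was -0.49 and -0.24. Of the 8 fat cell and fibroblast markers, 6 were also below 0 with IL-6, with a median of -0.12, and none passed. Among them miR-143-3p, named after its value was seen, was at -0.39 (limma adjusted p = 0.0845), with no overlap between groups, and the part of these markers in the result was not tested. The members come from one transcript and are not independent of each other, and in bulk RNA fewer cells carrying a miRNA and less of it per cell cannot be told apart.

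**Figure D1:**
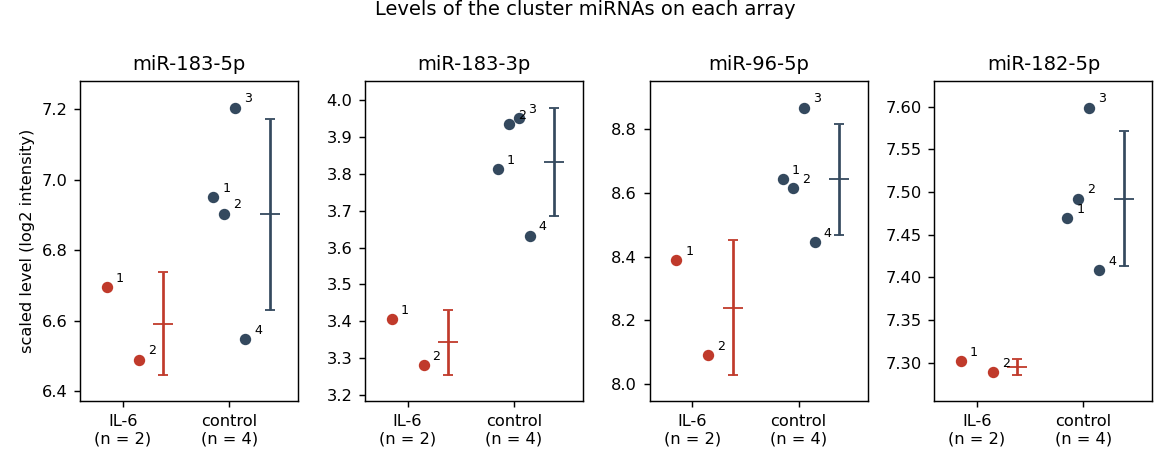
Scaled level (log2 intensity) of the 4 tested members on each array, IL-6 left of control, with the replicate number beside each point and the mean and SD beside each group. Both IL-6 points lie below all 4 control points except for miR-183-5p, where control 4 lies between the IL-6 arrays. The vertical axes differ between panels and do not start at 0.

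miR-183-5p, the guide strand of the first hairpin along the transcript, had scaled levels of 104 and 89.9 intensity units on IL-6 arrays 1 and 2, against 124, 119.7, 147 and 93.6 on control arrays 1 to 4. Control 4 was low and control 3 high, and the groups overlapped. The IL-6 mean was 96.7 ± 9.71 (SD, n = 2) and the control mean 121 ± 22.05 (SD, n = 4). On the log2 scale the difference was -0.31 ± 0.18 SE (95% interval -0.76 to 0.14, limma adjusted p = 0.356). This strand was the most variable of the tested members between controls, with an SD of 0.27 (log2, n = 4) beside a median of 0.13 over all tested miRNAs. Within slide column 3, which held IL-6 array 1 and control 3, the difference was -0.51, and within column 4, which held IL-6 array 2 and control 4, it was -0.059.

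miR-96-5p, whose seed is the one tied to hearing loss, had 335 and 273 intensity units on IL-6 arrays 1 and 2, against 399.6, 391.6, 466 and 348 on control arrays 1 to 4. The groups did not overlap, and control 3 was again the highest and control 4 the lowest of the controls. The IL-6 mean was 304 ± 44.1 (SD, n = 2) and the control mean 401 ± 48.8 (SD, n = 4). The log2 difference was -0.40 ± 0.14 SE (95% interval -0.74 to -0.06, limma adjusted p = 0.172), the second lowest of the 299. Within slide columns 3 and 4 it was -0.48 and -0.35.

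miR-182-5p, the guide strand of the last hairpin and the member best known for acting on FoxO mRNAs, gave the smallest difference of the 4. It had 158 and 156 intensity units on IL-6 arrays 1 and 2, against 177, 180.0, 194 and 169.9 on control arrays 1 to 4. The groups did not overlap, with little spread on either side, at an IL-6 mean of 157 ± 0.992 (SD, n = 2) and a control mean of 180.2 ± 10.0 (SD, n = 4). The log2 difference was -0.20 ± 0.07 SE (95% interval -0.37 to -0.02, limma adjusted p = 0.175). It was -0.30 within slide column 3 and -0.12 within column 4.

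miR-183-3p, the strand opposite miR-183-5p and usually the discarded one, was dim. It had 10.6 and 9.71 intensity units on IL-6 arrays 1 and 2, against 14.0, 15.3, 15.5 and 12.4 on control arrays 1 to 4, and the groups did not overlap. The IL-6 mean was 10.2 ± 0.623 (SD, n = 2) and the control mean 14.3 ± 1.42 (SD, n = 4). Its log2 difference of -0.49 ± 0.11 SE (95% interval -0.75 to -0.23, limma adjusted p = 0.0845) was the lowest of all 299 tested miRNAs and 1.40-fold lower with IL-6. Within slide columns 3 and 4 it was -0.55 and -0.35. Without control 4 it passed as lower (-0.56, limma adjusted p = 0.0379), when 2.68% of tested miRNAs did. With normexp background correction, which adds an offset of 50 units to every spot, the difference was -0.034, and the part of the offset in this was not tested. With the scanner's total signal per miRNA, miR-183-3p, miR-96-5p and miR-182-5p passed as lower, when 9.70% of tested miRNAs did and the median of all tested was -0.13.

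**Figure D2:**
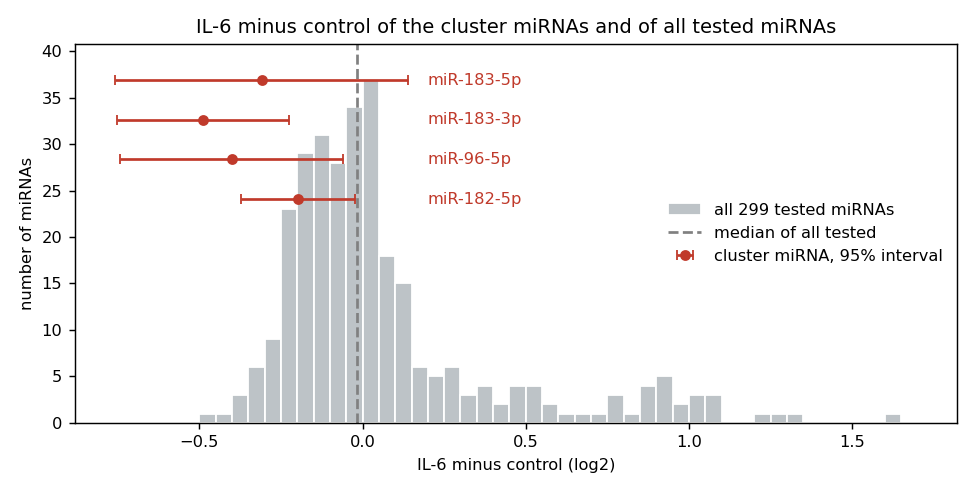
Log2 difference, IL-6 minus control, of the 4 tested members with limma's 95% intervals (red), above the histogram of the same difference for all 299 tested miRNAs (grey, number of miRNAs per bin). The members lie between -0.49 and -0.20, left of the median of all tested at -0.016, and the interval of miR-183-5p reaches 0.14.

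The other strands of the hairpins stayed at background. miR-96-3p had 1.32 and 1.31 intensity units with IL-6, against 2.97, 2.51, 3.12 and 2.18 in controls. Both IL-6 values were below all control values, but no spot was well above background in either group, so no fold is given. miR-182-3p had -0.278 and -0.175 units with IL-6, against -0.308, -0.503, -0.566 and -0.745 in controls. Here both IL-6 values were above all control values, again with no spot well above background. Negative values are spots dimmer than the fitted background.

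Each member was read by nested probes that start at the 3′ end of the miRNA and lengthen by 1 base at a time. The 4 probes for miR-183-3p, 10 spots each, are shown 5′ to 3′ with the added base in capitals, since they decided how that strand was measured:
12-base probe: ttatggcccttc
13-base probe: ttatggcccttcG
14-base probe: ttatggcccttcgG
15-base probe: ttatggcccttcggT

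The 15-base probe pairs with bases 8 to 22 of miR-183-3p and so touches only the last base of the seed. It gave 25.95 and 26.4 intensity units with IL-6, against 34.9, 36.7, 40.1 and 31.5 in controls, with no overlap. Its log2 difference was -0.45 ± 0.10 SE (limma over 571 tested probes, adjusted p = 0.102). The 14-base probe gave 15.6 and 12.9 units with IL-6, against 19.4, 20.6, 19.5 and 16.5 in controls. Both its IL-6 values lay under the probe floor of 16.2 units, below which values were set to the floor, so its log2 difference of -0.23 ± 0.09 SE (adjusted p = 0.229) is understated. The 13-base probe gave 1.46 and 1.49 units with IL-6, against 3.29, 4.29, 3.83 and 3.12 in controls, and the 12-base probe gave values below 0 on all 6 arrays. Neither was well above background.

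From the 14-base and 15-base probes alone the difference of miR-183-3p was -0.44. For the guide strands both probes had signal, and those for miR-182-5p are shown because a single added base went with a brighter spot:
15-base probe: cggtgtgagttctac
16-base probe: cggtgtgagttctacC

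These cover bases 11 to 25 and 10 to 25 of miR-182-5p, and none of the seed. The longer one gave 236 and 229 units with IL-6, against 266, 268, 289 and 248 in controls, a log2 difference of -0.20 ± 0.07 SE (limma adjusted p = 0.19). The shorter one gave 79.4 and 83.5 units with IL-6, against 88.5, 92.4, 98.6 and 91.3 in controls, a difference of -0.19 ± 0.06 SE (adjusted p = 0.195). The groups did not overlap for either probe. The probes for miR-96-5p, of 21 and 22 bases, both gave -0.40, and those for miR-183-5p, of 18 and 19 bases, gave -0.33 and -0.29. Over the members, 8 of 14 probes were tested and none passed, and of all 571 tested probes 0.00% passed as lower. The median difference was -0.31 over these 8 and -0.024 over all tested probes. At an unadjusted p under 0.05, 5 of the 8 were lower, against 13.5% of all tested probes, and 6 had IL-6 values wholly below the control values, against 20.7%. The probes' targets occurred in no other mature miRNA of the RefSeq table. The spots of a probe on one array varied by 3.89% to 25.9% (coefficient of variation), highest for the 14-base probe of miR-183-3p.

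**Figure D3:**
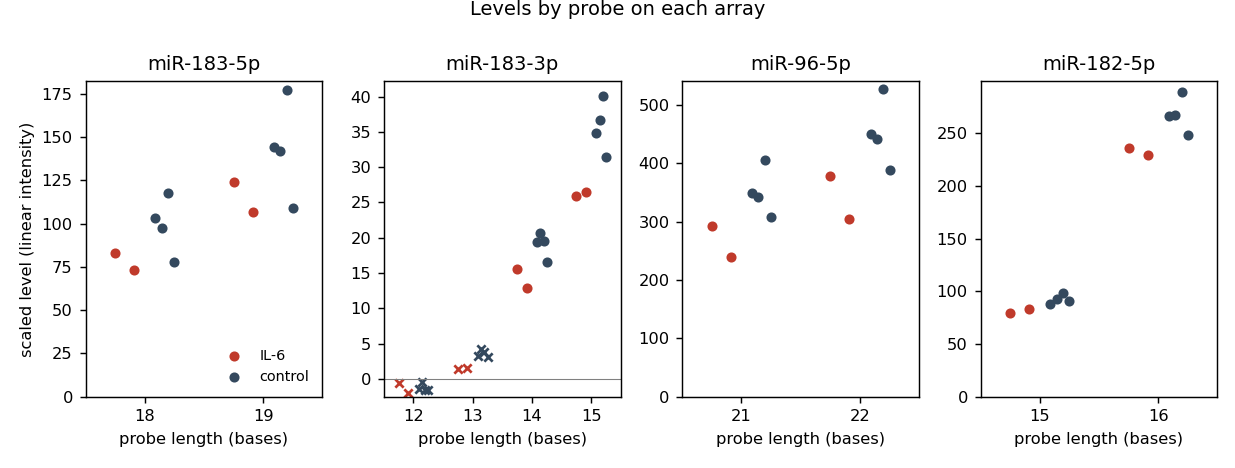
Scaled level (linear intensity units) on each array for each probe of the 4 tested members, by probe length in bases, with IL-6 (red) left of control (dark). Crosses mark probes not well above background, which are the 12-base and 13-base probes of miR-183-3p, and where both probes of a pair had signal, the IL-6 group was placed against the control group in the same way by both, below it without overlap or, for miR-183-5p, overlapping.

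Whether the members differed in size was tested on the difference between 2 members within each array, in which a scaling factor common to the array cancels. Over the 4 pairs tested, none passed an exact two-sided permutation test. Its smallest possible p with 15 splits is 0.0667, so no pair could have passed. The gaps of miR-183-3p to miR-96-5p and to miR-182-5p were not tested. The latter pair holds the members farthest apart in log2 difference, miR-183-3p at -0.49 and miR-182-5p at -0.20, so the tested pairs leave out the largest contrast. For miR-96-5p minus miR-182-5p the log2 gap was 0.95 ± 0.20 on the IL-6 arrays (SD, n = 2), against 1.15 ± 0.10 on the control arrays (SD, n = 4), a change of -0.20 (exact permutation p = 0.2, 0.4 after Benjamini-Hochberg adjustment over the 4 pairs). Leaving out IL-6 array 1 gave -0.35, and leaving out IL-6 array 2 gave -0.062. For the arms of miR-183, 5p minus 3p, the gap was 3.25 ± 0.06 on the IL-6 arrays (SD, n = 2), against 3.07 ± 0.15 on the control arrays (SD, n = 4), a change of 0.18 (exact permutation p = 0.2, adjusted 0.4) that turned to -0.23 with normexp background correction. The change was -0.11 for miR-183-5p minus miR-182-5p and 0.091 for miR-183-5p minus miR-96-5p (exact permutation p = 0.467 for each, adjusted 0.467). A design of this size cannot show whether the members moved equally or unequally.

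How the arrays were scaled set the zero point of these differences. Without scaling, the median of all tested miRNAs moved by 0.28, to 0.27, and the members were at -0.20 for miR-183-3p, -0.11 for miR-96-5p, -0.016 for miR-183-5p and 0.097 for miR-182-5p, with overlapping groups for all 4. With spike-in RNAs as the scale the values were -0.23, -0.14, -0.051 and 0.062 in the same order, beside a median of 0.24. The scanner software marked the labelling spike-in signal as out of range on every array, which limits that scale. The IL-6 arrays were brighter on average, but the groups overlapped, and the part of brightness in the result was not tested. Relative to the median of all tested miRNAs, the members' median was lower by 0.17 to 0.47 over the reported processing and its 19 alternatives. miR-183-3p had the lowest difference of all tested miRNAs under 18 of these 20 settings and miR-96-5p was among the 2 lowest under 13. Several of the settings could hardly change a rank. Multiplying whole arrays by other factors, as no scaling, spike-in scaling and scaling over all mouse probes amount to, shifts all differences nearly alike. A halved floor or no mean trend left the members' differences unchanged. The ranks of miR-183-3p ran from 1 to 169, of miR-96-5p from 1 to 38, of miR-183-5p from 3 to 62 and of miR-182-5p from 34 to 79.

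**Figure D4:**
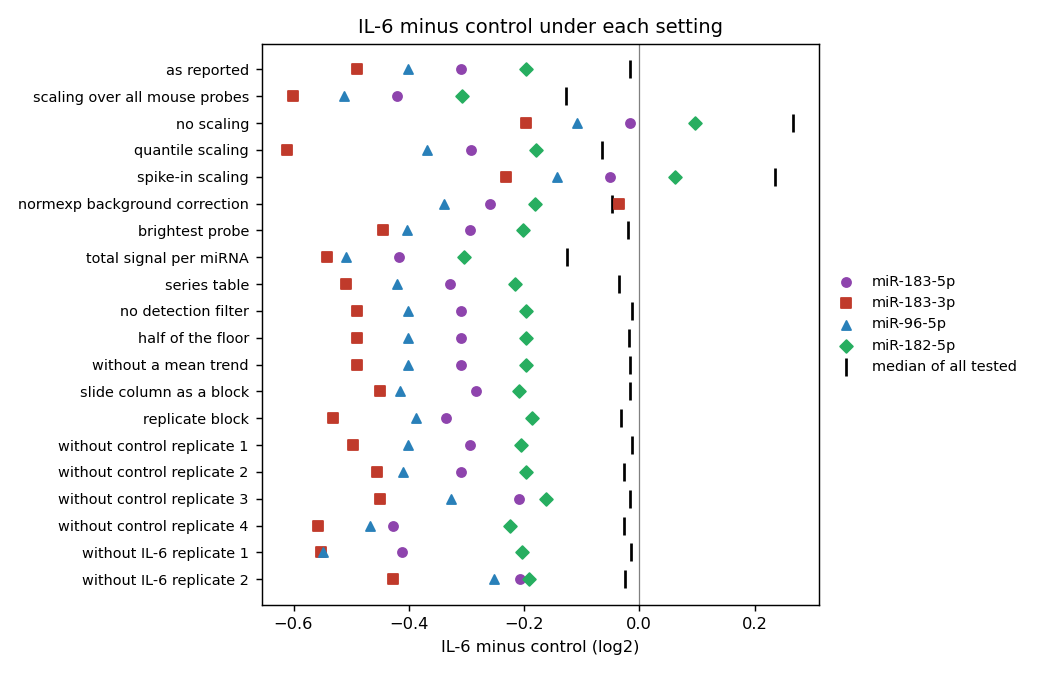
Log2 difference, IL-6 minus control, of the 4 tested members (coloured marks) and the median of all tested miRNAs (black bars) under the reported processing and each of 19 alternatives. The members keep left of the black bar under every setting shown except miR-183-3p with normexp background correction, while the position of zero moves with the scaling.

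The wider set of miRNAs with ties to the cluster gave no calls. Of 8 epithelial miRNAs only miR-205-5p was tested, and it was at 0.093 ± 0.081 SE (limma adjusted p = 0.55). Of 12 sensory and neural miRNAs 3 were tested, none passed, and all 3 are given to complete the list, at -0.19 for miR-219-5p, -0.091 for miR-7a-5p and 0.10 for miR-128-3p. Of 12 other miRNAs described as acting on FoxO mRNAs 6 were tested, 0 passed in either direction, and 5 of the 6 were below 0, with a median of -0.17. Among these, miR-21a-5p was at -0.15 ± 0.067 SE (adjusted p = 0.244) and miR-27a-3p, which restrains adipogenesis, at -0.17 ± 0.083 SE (adjusted p = 0.267). Over all 299, 163 (54.5%) were below 0.

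The likeness of profiles over the 6 arrays was described with Pearson's r of the log2 levels, whose points share the same arrays and scaling. Among tested miRNAs outside the cluster, the most alike to miR-183-5p were miR-34c-5p (0.96), miR-28c (0.96) and miR-15a-5p (0.95), and for miR-96-5p they were miR-467b-5p (0.98), miR-28c (0.97) and miR-331-3p (0.96). For miR-182-5p they were miR-331-3p (0.99), miR-467b-5p (0.98) and miR-652-3p (0.97), and for miR-183-3p they were miR-194-5p (0.98), miR-31-3p (0.95) and miR-331-3p (0.94). Between members r ran from 0.84, for the 2 arms of miR-183, to 0.96, for miR-183-3p with miR-182-5p. For each member the miRNA with the highest r came from outside the cluster, though only 4 of the 299 tested miRNAs are members. By r, fellow members ranked from 2 (miR-182-5p for miR-183-3p) to 32 (miR-183-3p for miR-183-5p).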

How the data were processed

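Each array took 100 ng of Cy3-labelled total RNA, per the labels' protocols. Agilent Feature Extraction 10.10.1.1 read the spots, per the submitters' processing notes. The deposited intensity values had been spatially detrended with no surrogates put in, per the file headers, and can be negative. The other deposited values used were spot flags. The authors' series table holds linear intensity equal to the scanner's total probe signal (largest difference 0), not centred, with column medians of 0.0727 and 0.117 (IL-6 1 and 2) and 0.0937, 0.104, 0.0777 and 0.0781 (controls 1 to 4). Any later normalization by the authors is not known from these sources.

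Of 49880 mouse spots per array, uneven and outlying ones were left out, and none was saturated. Spots were averaged per probe. Scaling divided every array by a 75th percentile, taken over the 502 probes detected throughout, and restored the mean percentile. A probe was detected where a share of 0.5 of its spots was well above background. Probes of a miRNA were averaged, values under 6.25 were set to that floor, and log2 was taken. The 299 miRNAs detected on all arrays of a group were fitted with limma 3.58.1 in R 4.3.3 (lmFit, eBayes with a mean trend, two-sided, Benjamini-Hochberg). The fit was tested on simulated data. Members, lists, tests and the naming rule (all members, sharers of their seed, the 3 most alike miRNAs of each, and of a list without calls the 2 of highest level, with exceptions stated where named) were chosen with earlier results of these data known. The probe-level fit and miR-183-3p from its detected probes were added after seeing the data. Alternatives changed scaling, background, probe summary, filter, floor, spread model, blocks and arrays.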

Additional observations from a re-analysis of the deposited data

How the results depend on the processing

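The number of miRNAs that passed was 1 as reported (limma, adjusted p under 0.05) and moved to 34 without scaling, 36 with spike-in scaling, 42 with the scanner's total signal per miRNA (13 higher, 29 lower), 7 with the floor halved, and 2 with scaling over all mouse probes, with the brightest probe or with no detection filter. It was 0 with normexp background correction (limma, 30 at an unadjusted p under 0.05), with the series table (79) and with slide column or the replicate number as a block (50 each). Leaving out 1 array gave 1 to 31, the highest without control 4. With total signal per miRNA, 3 members passed as lower, miR-183-3p at -0.54 (limma adjusted p = 0.0463), miR-96-5p at -0.51 (0.0487) and miR-182-5p at -0.30 (0.0463), when 9.70% of tested miRNAs did and the median of all tested was -0.13. miR-182-5p turned to 0.097 without scaling and 0.062 with spike-in scaling. The change in the arm gap of miR-183 between IL-6 and control turned to -0.23 with normexp, and the part of its offset in this was not tested. Leaving out 1 array gave -0.43 to -0.21 for miR-183-5p, -0.56 to -0.43 for miR-183-3p, -0.55 to -0.25 for miR-96-5p and -0.22 to -0.16 for miR-182-5p. For the changes in gaps between members it gave 0.13 to 0.24 (miR-183-5p minus miR-183-3p), -0.35 to -0.062 (miR-96-5p minus miR-182-5p), -0.21 to -0.016 (miR-183-5p minus miR-182-5p) and 0.040 to 0.14 (miR-183-5p minus miR-96-5p). A lone IL-6 array is then assumed to vary like the controls.

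With slide column, as read from the array identifiers, as a block the members were at -0.28 (miR-183-5p), -0.45 (miR-183-3p), -0.41 (miR-96-5p) and -0.21 (miR-182-5p). With the replicate block they were at -0.33, -0.53, -0.39 and -0.19. The groups share only 2 numbers, and the labels state no pairing, so the numbers were not taken as pairs. Deviations from the group means correlated at 0.06 and -0.34 between arrays of the same number. With 2 IL-6 arrays their deviations mirror each other, so these correlations cannot decide whether the numbers are pairs. The cause of the shifts in the count was not tested. Dim spots limit miR-183-3p most.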

Other observations

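The array files list positions on chromosome 6 for every member probe, in 2 sets whose genome build is not named. The second set falls within the RefSeq hairpins of GRCm38.p6, but 0 of 14 probe positions matched the place of the probe's target on the minus strand. All 14 matched a count from the low end of the hairpin, as if it lay on the plus strand, 28 to 50 bases from the RefSeq position. The RefSeq positions were therefore used here.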
